A study of Mus musculus with 8 samples.

Results

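The genes described here are 48 genes of the mitotic spindle, the kinetochore and the machinery of chromosome segregation, read in stimulated mouse T cells that were kept with or without human beta-defensin-2 (hBD-2). A gene was taken when the platform annotation gave its symbol to a probe set of the deposited table. Of the 48 genes, 46 matched a probe set, each exactly 1, among 19505 named genes. Ccnb1 and Foxm1 matched none and were not analysed here.

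Each of the 8 arrays held total RNA of T cells from the spleens of wild-type C57BL/6 male mice, whose age the labels do not give. The cells, CD4 and CD8 T cells together, had been enriched untouched from 4 mice and activated with beads coated with anti-CD3 and anti-CD28, so both groups were stimulated. For 48 h, 4 samples were kept with phosphate-buffered saline (PBS) and 4 with hBD-2, a human antimicrobial peptide. The peptide was added at 60 µL/mL, a volume, so its mass concentration is not known. Arrays are numbered 1 to 4 in each group, and the labels do not name the mouse behind each. If arrays were made from shared cultures, p-values measure only the spread between these samples, which may be technical.

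Activated T cells divide rapidly, and the genes of mitosis are switched on late in each cycle. Cyclin-dependent kinase 1 with its cyclins starts mitosis. Kinetochores assemble on centromeres and catch microtubules, the spindle checkpoint holds the cell until every chromosome is attached, and the anaphase-promoting complex then releases the sister chromatids. Many of these genes are known to share a cell cycle promoter design, in which the CHR element recruits the DREAM complex in resting cells and B-MYB with FOXM1 in dividing cells, and nearby CCAAT boxes bind NF-Y. In whole-population RNA, fewer cells in mitosis and less mitotic RNA per cell cannot be told apart.

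Values are deposited log2 array values. A fold change is the log2 mean with hBD-2 less that with PBS, given with a standard error (SE), and ± marks the SD over 4 arrays. A gene passed the test when its limma p-value, adjusted by the Benjamini-Hochberg method over all 19505 genes, was under 0.05. T cell identity was visible in both groups: 11 of 12 T cell markers were measured, their mean levels ran from 9.36 to 11.5, and none passed the test for a change. Over all genes, 869 passed (4.46%), 713 of them lower with hBD-2 (3.66%) and 156 higher (0.800%). After the deposited values were quantile normalized again, 506 were lower and 234 higher.

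Across the mitotic genes the hBD-2 arrays lay below the PBS arrays by a small amount, and few single genes passed the test. Hmmr and Cenpa fell, 2 of 46 (4.35%, against 3.66% of all genes called lower), and no member rose (0 of 46; 1 of 46 was higher at an unadjusted limma p under 0.05). At that unadjusted threshold 21 members were lower, beside 12.8% of all genes. The log2 fold change was below 0 in 43 of 46 members, which is 93.5%, while it was below 0 in 46.1% of all genes. The median over the members was -0.20, with a range from -0.64 to 0.22, and the median over all genes was 0.02. In 20 members (43.5%) the 4 hBD-2 values all lay below the 4 PBS values, against 9.36% of all genes. Only Ndc80 and Mki67 of the 46 lay higher without overlap, against 5.51% of all genes. In 38 members the 95% interval stayed within a 1.5-fold change either way, and in the other 8 it reached a 1.5-fold fall.

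The number of members that passed moved with the fit. It was 10 of 45 when genes in the dimmest 40% were left out, where 13.2% of the remaining genes passed, and 18 of 46 with a variance trend and robust estimation, where 10.4% of all genes passed. It was 8 without hBD-2 array 1, where 7.16% of all genes passed, 2 without PBS array 3 (3.45%), and 0 without any other single array (1.60% to 3.14%), and none of these passed as higher. Quantile normalization, repeated on the deposited values, left 35 members below 0 (46.9% of all genes), a median of -0.12 and 13 members lower without overlap (7.25% of all genes). Cyclic loess and the removal of each array's trend against level each left 37 below 0 (48.8% and 48.7% of all genes), also with a median of -0.12. Under all of these scalings the sign of Cenpe, Cenpf, Nuf2, Spc25, Ttk and Incenp turned positive, and under quantile normalization that of Anln and Top2a did as well.

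**Figure D1:**
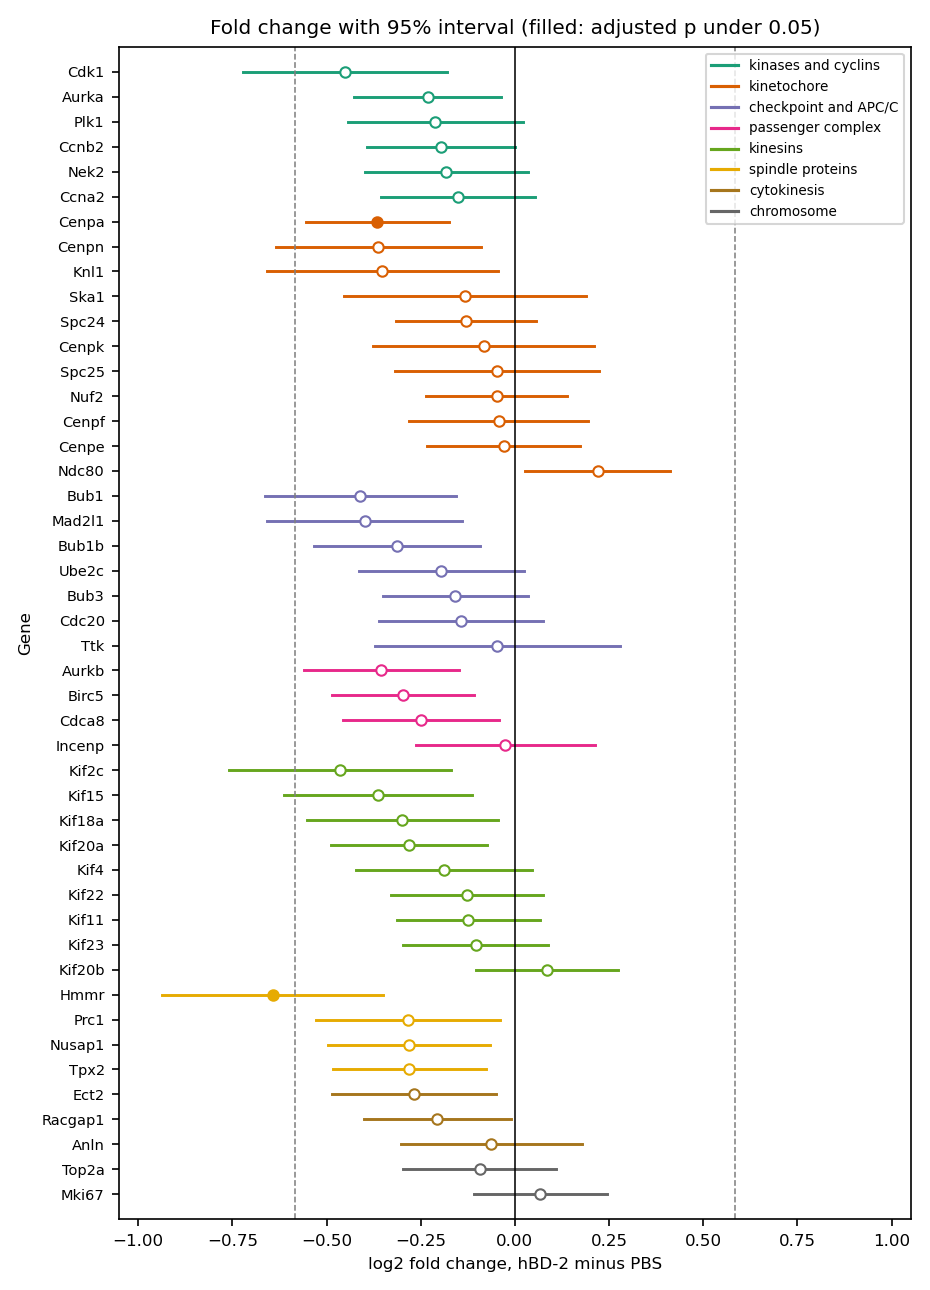
Log2 fold change (hBD-2 minus PBS, horizontal axis) of the 46 measured mitotic genes, grouped by role, with 95% intervals from limma; filled points passed the adjusted test and dashed lines mark a 1.5-fold change either way. Points left of 0 are lower with hBD-2; 43 of 46 lie there, and the filled points are Hmmr and Cenpa.

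The 4 hBD-2 arrays were not alike. The mean level of the 46 genes was 8.84, 8.77, 8.70 and 8.81 on PBS arrays 1 to 4, and 8.69, 8.64, 8.48 and 8.50 on hBD-2 arrays 1 to 4. Every hBD-2 array thus lay below every PBS array, with arrays 3 and 4 the lowest. Relative to each gene's PBS mean, the median deviation was -0.10, -0.12, -0.28 and -0.27 on hBD-2 arrays 1 to 4. The numbers of members under their PBS mean were 35, 38, 41 and 43 of 46, while 47.9% to 50.5% of all genes were under theirs. On PBS arrays 1 to 4 these numbers were 13, 29, 35 and 14, beside 47.8% to 51.0% of all genes. PBS array 3 thus had the same number as hBD-2 array 1, with a median deviation of -0.09. Array 3 or 4 held the lowest of the 4 hBD-2 values in 39 of 46 members (84.8%), against 50.9% of all genes.

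Those same arrays had the narrowest spread of values over all probe sets. The interquartile range was 3.45 on hBD-2 arrays 3 and 4, 3.57 to 3.64 on hBD-2 arrays 1 and 2, and 3.64 to 3.76 on the PBS arrays. Without hBD-2 arrays 3 and 4, 0 members passed in limma (7 at an unadjusted p under 0.05), beside 0.656% of all genes. The median of the members was then -0.13, with 38 of 46 below 0, beside 48.8% of all genes. The scalings above bring the arrays to a common spread and left the median of the members at -0.12, against -0.20 as deposited.

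**Figure D2:**
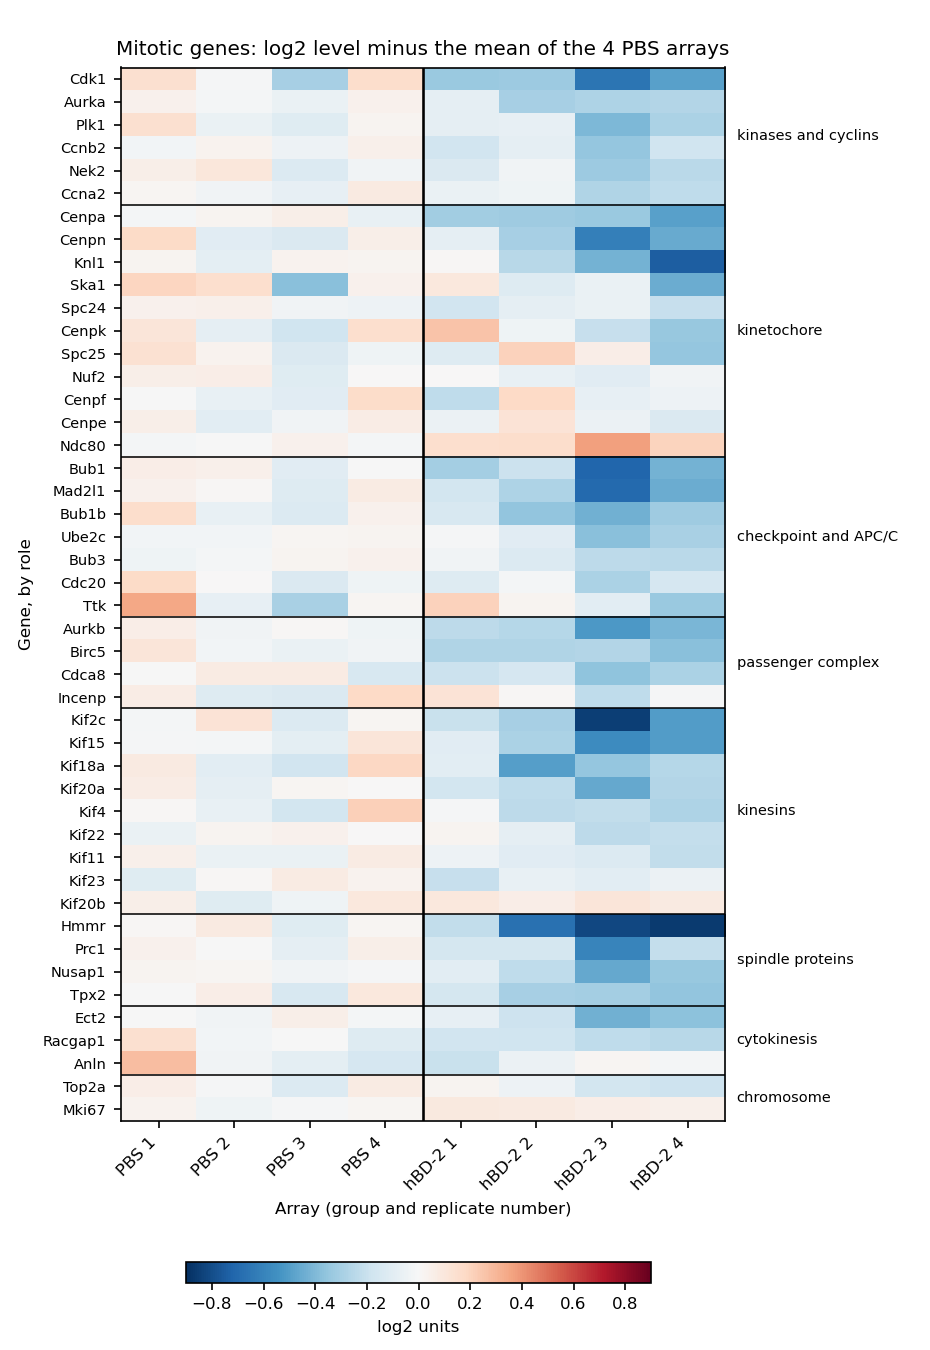
Heat map of the 46 mitotic genes (vertical axis, by role) on the 8 arrays (horizontal axis), with colour giving the log2 value minus the gene's PBS mean, blue for lower and red for higher. The medians on hBD-2 arrays 1 to 4 are -0.10, -0.12, -0.28 and -0.27.

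Level also bears on the comparison, since genes of middle and high level were lower with hBD-2 more often than dim ones. Mean levels of the members ran from 4.62 for Ska1 to 11.1 for Mki67, with a median of 8.73, against a median of 5.45 over all genes. The 2 members between log2 levels of 6 and 7 had a median fold change of -0.07, against -0.04 for all genes. Of these members 0 were lower without overlap, beside 11.1% of all genes. Between 7 and 8, the 8 members had a median of -0.16, against -0.08. Lower without overlap were 2 of them, beside 17.2% of all genes. Between log2 levels of 8 and 9, the 17 members had a median fold change of -0.30 and 11 of them were lower without overlap. All genes of that level had a median of -0.08, and 23.1% of them were lower without overlap. Between 9 and 10, the 13 members had a median of -0.15 with 6 lower without overlap, against -0.09 and 30.3% for all genes of that level. In the bin from 10 to 11 the 4 members had a median of -0.20, against -0.06, but 1 of them was lower without overlap, beside 26.9% of all genes. Mki67, the member above 11, stood at 0.07, against -0.05. These are descriptions with no test.

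**Figure D3:**
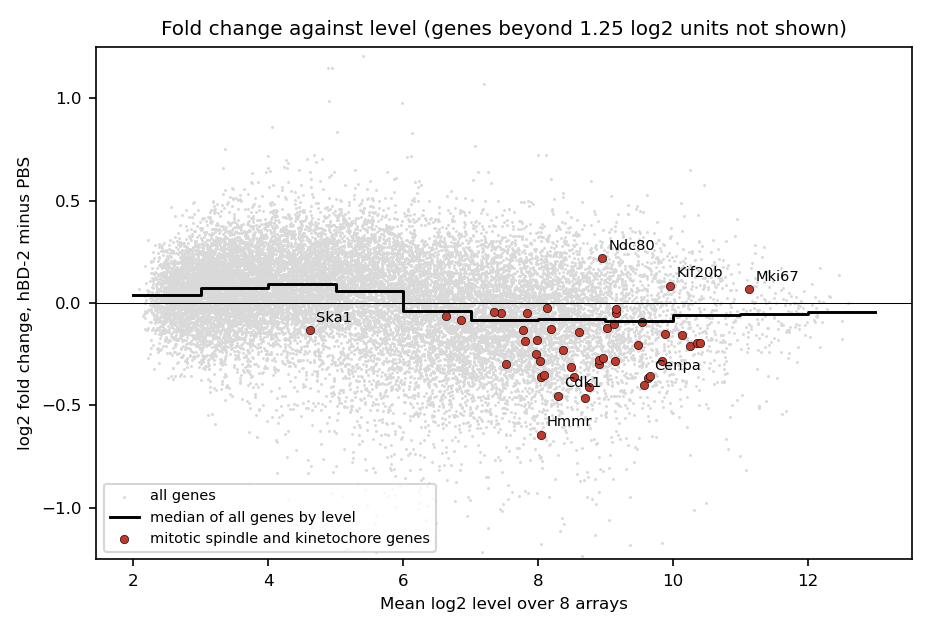
Log2 fold change (hBD-2 minus PBS) against mean log2 level, with all genes in grey, the median of all genes by level as a line and the mitotic genes in red. Hmmr at -0.64 is the lowest member, and Ndc80 at 0.22 the highest.

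Promoter sequence was examined for the members because of the shared cell cycle elements. RefSeq windows on GRCm38.p6, from 250 bases before to 50 after a gene's start, were found for 39 of the 46 measured members; Ccna2, Spc24, Ska1, Aurkb, Incenp, Kif20a and Tpx2 had none. The CHR word TTTGAA or its variant form TTCGAA, searched on both strands, was present in 31 of 39 (79.5%), against 21.7% of 27025 genes. CCAAT on either strand was present in 28 (71.8%, against 41.1%). A CHR word and CCAAT stood in the same window in 25 (64.1%, against 8.61%). E2F sites were searched as the word TTGGCGC, which can overlap a CCAAT box on the opposite strand, the word TTCCCGC, the word TTCGCGC and the word TTGCCGC, again on both strands, and were present in 8 (20.5%, against 10.9%). In 29 genes a CHR word lay from 60 bases before to 50 after a listed start. The share of all genes with a word in that narrower range was not counted. Of 45 windows of the listed genes, 22 had a start that matched the gene annotation, so distances are from listed starts.

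Median fold changes of members with and without each word were set side by side, with no test. The median was -0.20 in the 31 members with a CHR word and -0.23 in the 8 without. It was -0.19 in the 28 with CCAAT and -0.30 in the 11 without. For the E2F words it was -0.33 in the 8 with one and -0.19 in the 31 without. These are descriptions of letters in a window, not of bound sites.

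The following 150 bases, from 120 before to 30 after the start, are shown for the 2 members that fell, for Cdk1 and Ccnb2 as the kinase and a cyclin that start mitosis, and for Mki67 and Kif20b, 2 of the 3 members above 0. CHR words and CCAAT, on either strand, are in capitals. The windows are chr11:40733408-40733557 for Hmmr (minus strand), chr5:30666766-30666915 for Cenpa (plus strand), chr10:69352883-69353032 for Cdk1 (minus strand), chr9:70421525-70421674 for Ccnb2 (minus strand), chr7:135716350-135716499 for Mki67 (minus strand) and chr19:34922238-34922387 for Kif20b (plus strand).
Hmmr: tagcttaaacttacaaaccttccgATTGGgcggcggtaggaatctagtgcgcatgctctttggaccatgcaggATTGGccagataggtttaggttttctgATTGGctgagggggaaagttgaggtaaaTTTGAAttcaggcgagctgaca
Cenpa: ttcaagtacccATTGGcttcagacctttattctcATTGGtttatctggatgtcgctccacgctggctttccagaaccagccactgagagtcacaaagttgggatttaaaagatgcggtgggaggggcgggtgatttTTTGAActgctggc
Cdk1: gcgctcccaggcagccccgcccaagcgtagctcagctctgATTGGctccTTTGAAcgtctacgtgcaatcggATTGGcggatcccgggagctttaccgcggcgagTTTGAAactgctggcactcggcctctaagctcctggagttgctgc
Ccnb2: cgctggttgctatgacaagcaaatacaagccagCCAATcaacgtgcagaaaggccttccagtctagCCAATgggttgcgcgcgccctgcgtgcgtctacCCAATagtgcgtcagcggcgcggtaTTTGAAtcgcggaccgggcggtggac
Mki67: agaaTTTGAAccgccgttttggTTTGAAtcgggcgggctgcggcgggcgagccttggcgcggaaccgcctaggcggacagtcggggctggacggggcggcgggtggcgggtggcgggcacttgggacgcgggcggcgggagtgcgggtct
Kif20b: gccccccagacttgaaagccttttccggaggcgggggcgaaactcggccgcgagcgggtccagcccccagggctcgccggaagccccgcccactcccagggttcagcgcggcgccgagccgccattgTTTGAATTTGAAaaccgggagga

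Hmmr shows 3 CCAAT words and a single CHR word, and Cenpa 2 and 1, in the windows printed. Ccnb2 has the same counts as Hmmr, and Cdk1 has 2 of each. Mki67 and Kif20b each show 2 CHR words and no CCAAT in these 150 bases. Mki67 does hold CCAAT further upstream, before the bases printed.

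**Figure D4:**
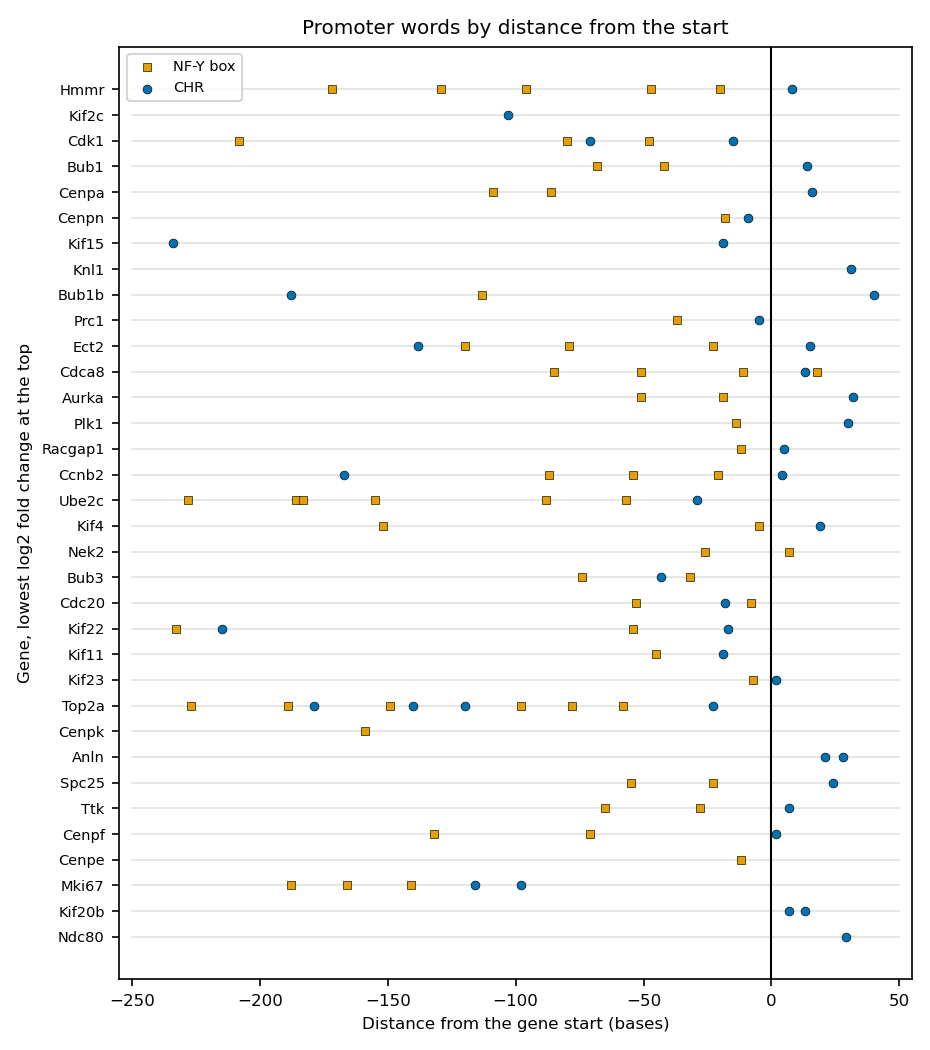
Positions of CHR words and CCAAT (NF-Y) boxes, in bases from the listed start, in promoter windows of the 34 mitotic genes with at least 1 word. For genes with several listed starts, the start of lowest coordinate is drawn. In 29 of the 39 genes with a window, a CHR word lies from 60 bases before to 50 after a listed start. The share of all genes in that range was not counted.

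The kinases and cyclins that drive entry into mitosis all had fold changes below 0, and none of the 6 measured passed (0 in limma; 2 at an unadjusted p under 0.05). Their median was -0.20, and 3 of the 6 were lower without overlap, against 9.36% of all genes. At the levels of these genes, from 7 to 11, the share of all genes was 17.2% to 30.3%. Cdk1, the kinase that drives entry into mitosis, was at 8.67, 8.51, 8.22 and 8.68 on PBS arrays 1 to 4 and at 8.19, 8.19, 7.86 and 8.03 on hBD-2 arrays 1 to 4. Its lowest PBS value, on array 3, lay just above its highest hBD-2 value. The fold change was -0.45 (SE 0.124; limma adjusted p = 0.0635), and without PBS array 3 it was -0.55 and passed.

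Ccnb2, a B-type cyclin partner of Cdk1, was at 10.43, 10.48, 10.40 and 10.50 with PBS and 10.28, 10.37, 10.10 and 10.28 with hBD-2. The groups did not overlap, and the fold change was -0.20 (SE 0.0904; limma adjusted p = 0.227). Aurka, the kinase of centrosomes and spindle poles, stood at 8.52, 8.47, 8.42 and 8.52 with PBS and 8.40, 8.18, 8.20 and 8.22 with hBD-2, again without overlap but with array 1 close to the PBS range. Plk1, a kinase of spindle assembly and mitotic exit, was at 10.51, 10.31, 10.26 and 10.39 against 10.29, 10.29, 9.96 and 10.08. Here hBD-2 arrays 1 and 2 lay inside the PBS range. Ccna2, the cyclin of S phase and early mitosis, and Nek2, a kinase that helps centrosomes part, had fold changes of -0.15 and -0.18 (limma adjusted p = 0.364 and 0.302).

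Of the 11 genes of the centromere and kinetochore, 10 had fold changes below 0 with a median of -0.08, and Cenpa fell. Cenpa encodes the histone H3 variant that marks the centromere. It was at 9.79, 9.84, 9.87 and 9.74 with PBS and at 9.50, 9.49, 9.47 and 9.32 with hBD-2. All 4 hBD-2 values lay below all PBS values, with array 4 lowest. The mean went from 9.81 ± 0.0530 to 9.44 ± 0.0823 (SD, n = 4 each), a 1.29-fold fall (log2 -0.37, SE 0.0869, 95% interval -0.56 to -0.18, limma adjusted p = 0.0389). The call was kept without hBD-2 array 1 and was lost without each of the other 7 arrays (adjusted p from 0.0377 to 0.107 over all 8), and it was lost after quantile normalization, cyclic loess and trend removal (limma adjusted p = 0.0860, 0.0864 and 0.0799).

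Cenpn, which binds the Cenpa nucleosome, stood at 8.40, 8.13, 8.10 and 8.29 with PBS and at 8.15, 7.93, 7.61 and 7.78 with hBD-2. Its hBD-2 array 1 lay inside the PBS range, and the fold change was -0.36 (limma adjusted p = 0.120). Knl1, the scaffold that recruits the Bub proteins, was at 8.29, 8.18, 8.29 and 8.29 against 8.27, 8.02, 7.84 and 7.52. Its hBD-2 values were the most spread out (8.26 ± 0.0573 with PBS, 7.91 ± 0.317 with hBD-2), so the fold change of -0.35 did not pass (limma adjusted p = 0.169).

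The 4 subunits of the Ndc80 complex, which grips microtubules, did not share a direction. Ndc80 lay between 8.82 and 8.88 with PBS and between 8.99 and 9.21 with hBD-2, and was chosen for display after its values were seen. Every hBD-2 value lay above every PBS value, with a fold change of 0.22 (SE 0.0881; limma adjusted p = 0.171). Its partner Nuf2 was at -0.05, Spc24 at -0.13 without overlap and Spc25 at -0.05. Cenpe, a kinesin of the outer kinetochore, Cenpf, Cenpk, a subunit of the inner kinetochore, and Ska1, which tracks microtubule ends, had fold changes of -0.03, -0.04, -0.08 and -0.13, and none passed.

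All 7 genes of the spindle checkpoint and the anaphase-promoting complex had fold changes below 0, with a median of -0.19. None passed in limma, with 3 at an unadjusted p under 0.05. Bub1, a checkpoint kinase, was at 9.02, 9.01, 8.86 and 8.96 with PBS and 8.65, 8.76, 8.24 and 8.54 with hBD-2. Mad2l1, the subunit of the checkpoint that restrains Cdc20, was at 9.81, 9.78, 9.65 and 9.84 against 9.60, 9.49, 9.07 and 9.32. Both were lower without overlap, lowest on hBD-2 array 3, with fold changes of -0.41 (SE 0.116; limma adjusted p = 0.0703) and -0.40 (SE 0.119; limma adjusted p = 0.0810).

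Bub1b, the BubR1 pseudokinase, was at 8.81, 8.59, 8.53 and 8.69 with PBS and 8.51, 8.30, 8.22 and 8.33 with hBD-2, also without overlap (fold change -0.31; limma adjusted p = 0.101). Cdc20, the activator of the anaphase-promoting complex, was at 8.84, 8.68, 8.54 and 8.64 against 8.56, 8.65, 8.39 and 8.52. These ranges overlapped, and the fold change was -0.14 (limma adjusted p = 0.427). Bub3, Ube2c, the ubiquitin-conjugating enzyme of that complex, and Ttk, the kinase that starts the checkpoint, were at -0.16, -0.19 and -0.05.

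The chromosomal passenger complex carries Aurora B kinase to centromeres and then to the midzone. All 4 of its genes had fold changes below 0, none passed in limma, and 3 were under 0.05 unadjusted. Aurkb, its kinase, was at 9.90, 9.81, 9.86 and 9.80 with PBS and 9.61, 9.59, 9.33 and 9.43 with hBD-2. Birc5 (survivin) was at 9.16, 9.03, 8.99 and 9.02 against 8.77, 8.78, 8.78 and 8.67. Neither overlapped between groups, and Aurkb came closest of the 44 members that did not pass, at -0.35 (SE 0.0938; limma adjusted p = 0.0562), with Birc5 at -0.30 (limma adjusted p = 0.0745). Cdca8 (borealin) was at 8.09, 8.17, 8.17 and 7.95 with PBS and 7.90, 7.95, 7.73 and 7.81 with hBD-2, and its groups came within rounding of each other without overlapping. Incenp, the scaffold of the complex, was at -0.02 (limma adjusted p = 0.920).

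Of the 9 mitotic kinesins, 8 had fold changes below 0, with a median of -0.19. None passed in limma, and 4 were under 0.05 unadjusted. Kif2c, which takes microtubules apart at kinetochores, was at 8.92, 9.05, 8.81 and 8.95 with PBS and 8.73, 8.63, 8.08 and 8.43 with hBD-2. The fold change of -0.46 (SE 0.135) was next in size to that of Hmmr, and the limma adjusted p was 0.0750. Kif15, which helps keep the spindle bipolar, was at 8.71, 8.70, 8.63 and 8.83 against 8.61, 8.43, 8.15 and 8.21. Kif20a, which brings the passenger complex to the midzone, was at 9.35, 9.21, 9.30 and 9.29 against 9.12, 9.06, 8.82 and 9.03. In all 3 of these the groups did not overlap and hBD-2 array 3 was lowest.

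Kif18a, which steadies chromosomes at the plate, was at -0.30 (limma adjusted p = 0.160), and Kif4, a chromosome-bound kinesin, at -0.19. Kif11, the main motor that separates spindle poles, Kif22, which pushes chromosome arms outward, and Kif23, a motor of the central spindle, were at -0.12, -0.13 and -0.10. Kif20b stood apart in direction and was displayed after its values were seen. It lay between 9.81 and 10.01 with PBS and between 9.97 and 10.03 with hBD-2, overlapping, with a fold change of 0.08 and a 95% interval from -0.10 to 0.27.

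All 4 spindle-associated proteins were lower with hBD-2 without overlap, against 9.36% of all genes, and Hmmr fell. At the levels of these genes, from 8 to 10, the share of all genes was 23.1% to 30.3%. Hmmr binds microtubules and works with Tpx2 at spindle poles. It was at 8.37, 8.44, 8.25 and 8.38 on PBS arrays 1 to 4 and at 8.14, 7.69, 7.55 and 7.50 on hBD-2 arrays 1 to 4. The PBS values were close together, while hBD-2 array 1 lay near them and the other 3 further down. The mean went from 8.36 ± 0.0777 to 7.72 ± 0.292 (SD, n = 4 each), a 1.56-fold fall (log2 -0.64, SE 0.134, 95% interval -0.94 to -0.35, limma adjusted p = 0.0236). The call was kept under all 3 scalings, and without PBS array 3 or hBD-2 array 1, and was lost without each of the other 6 arrays (limma adjusted p from 0.00256 to 0.0754 over the 8).

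Tpx2, which activates Aurora A, was at 9.04, 9.10, 8.90 and 9.13 with PBS and 8.88, 8.74, 8.73 and 8.69 with hBD-2. Nusap1, which bundles spindle microtubules, was at 10.00, 10.00, 9.94 and 9.97 against 9.89, 9.75, 9.51 and 9.64. Each had a fold change of -0.28, as did Prc1, which crosslinks microtubules of the midzone (limma adjusted p = 0.109, 0.125 and 0.165).

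For cytokinesis, 3 genes were measured, all with fold changes below 0, and none passed in limma (2 at an unadjusted p under 0.05). Ect2, which activates RhoA at the cleavage site, was at 9.10, 9.07, 9.15 and 9.08 with PBS and 9.02, 8.91, 8.67 and 8.73 with hBD-2. Racgap1, its partner at the midzone, was at 9.73, 9.56, 9.59 and 9.47 against 9.42, 9.41, 9.36 and 9.34. Neither overlapped between groups. Anln, the scaffold of the contractile ring, was at 6.95, 6.64, 6.58 and 6.52 with PBS and 6.47, 6.62, 6.69 and 6.66 with hBD-2. The ranges overlapped, with PBS array 1 above every hBD-2 value and hBD-2 array 1 below every PBS value. Its fold change of -0.06 turned to 0.030 without PBS array 1 and to 0.012 after quantile normalization.

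The proliferation marker Mki67, which coats mitotic chromosomes, did not fall. It was at 11.13, 11.06, 11.09 and 11.12 with PBS and 11.19, 11.18, 11.16 and 11.15 with hBD-2. Every hBD-2 value lay above every PBS value by a small step, a fold change of 0.07 with a 95% interval from -0.11 to 0.24 (limma adjusted p = 0.671). Top2a, which untangles DNA, was at 9.66, 9.59, 9.48 and 9.67 against 9.62, 9.55, 9.44 and 9.41. Its fold change was -0.09 with a 95% interval from -0.30 to 0.11. Neither gene was under 0.05 unadjusted in limma.

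**Figure D5:**
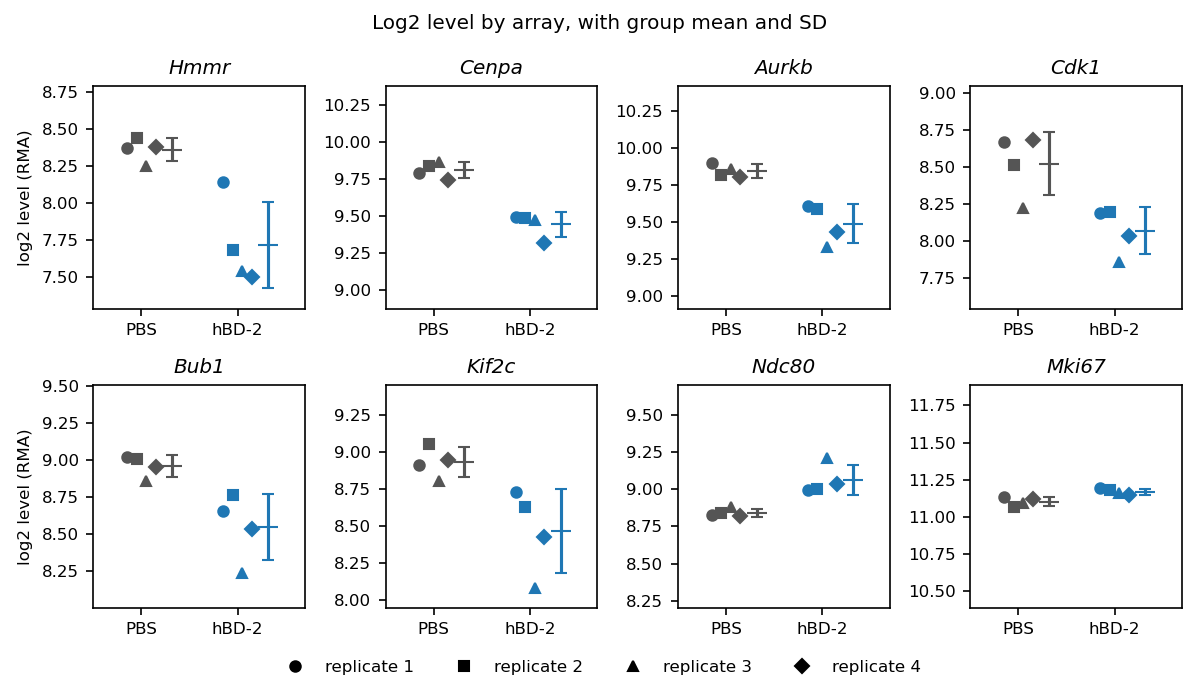
Log2 values of named mitotic genes on each of the 4 PBS and 4 hBD-2 arrays, with marker shapes for the replicate number and bars for the group mean and SD. Hmmr and Cenpa lie lower on every hBD-2 array, whereas Mki67 and Ndc80 lie slightly higher.

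Pairs of related members were compared by the difference of their log2 values on each array, with exact two-sided permutation tests over 4 against 4 arrays. The smallest p this allows is 0.0286. Of 9 pairs, 7 were measured, and p-values were adjusted over the 7. After that adjustment a single pair could not pass even with its groups fully apart, so the 0 that passed says nothing on whether partners differed (1 had an unadjusted exact p under 0.05). Kif20a minus Kif20b ran from -0.72 to -0.57 with PBS and from -1.20 to -0.90 with hBD-2, a difference of -0.37 (exact permutation p = 0.0286; adjusted p = 0.133). Ndc80 minus Nuf2 changed by 0.27 and Mki67 minus Top2a by 0.16 (each exact permutation p = 0.0571; adjusted p = 0.133). The other four pairs moved by -0.10 to 0.12: Aurka minus Aurkb by 0.12 (exact permutation p = 0.114), Bub1 minus Bub1b by -0.10 (0.40), Spc24 minus Spc25 by -0.08 (0.429) and Cenpe minus Cenpf by 0.01 (0.886).

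Other genes of mitosis showed a like tilt. Of 134 measured, 8 fell and 2 rose (7.46%, against 4.46% of all genes). Fold changes were below 0 in 108 (80.6%, against 46.1% of all genes), with a median of -0.17. Lower without overlap were 33 (24.6%), against 9.36% of all genes. Between levels 7 and 8, where the list's median level of 7.77 lay, 17.2% of all genes were. The calls numbered 29 without hBD-2 array 1, 4 without hBD-2 array 3 and 5 without hBD-2 array 4 or without PBS array 1, 2 or 4. The share of all genes that passed moved over the same fits, as given for the members above.

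By list, 6.25% of 32 other kinetochore genes and 4.76% of 21 anaphase-promoting complex and separase genes passed, against 4.46% of all genes. Of 38 further spindle and cytokinesis genes 10.5% passed, and of 24 further kinases and regulators of G2 and mitosis 12.5%. Among the 32 other kinetochore genes, Cenpx, a histone-fold subunit of the inner kinetochore, fell 1.58-fold (limma adjusted p = 0.0116) and Ska3 fell 1.51-fold (0.0278). In the anaphase-promoting complex and separase list of 21, Trip13, which remodels Mad2, fell 1.43-fold (limma adjusted p = 0.0464). Of 38 further spindle and cytokinesis genes, Kif3a, Kif24 and Spag5 fell and Psrc1, a microtubule-binding protein, rose 1.56-fold (limma adjusted p = 0.00504). Of 24 further kinases and regulators of G2 and mitosis, Cdkn3, a phosphatase of cyclin-dependent kinases, and Cks1b, which binds those kinases, fell, and Gtse1, a microtubule-binding protein, rose 1.44-fold (limma adjusted p = 0.00935). None of the 19 condensin and cohesin genes passed in limma (3 lower and 2 higher at an unadjusted p under 0.05), with a median of -0.03; Smc4, of condensin, stood at 0.41 (adjusted p = 0.0561), and Nipbl, which loads cohesin, at 0.30 (0.0744). Under the 3 scalings both passed as higher, with adjusted p from 0.0408 to 0.0464 for Smc4 and from 0.0393 to 0.0408 for Nipbl. Cenpx, Psrc1, Gtse1 and Cdkn3 kept their calls without any single array, and Kif24 lost it without PBS array 2 or hBD-2 array 3. Ska3 kept its call only without hBD-2 array 1 or 2, Kif3a and Cks1b only without PBS array 3 or hBD-2 array 1, and Trip13 only without hBD-2 array 1, among the 8 single arrays left out. Spag5 lost its call without PBS array 1, 3 or 4 or hBD-2 array 3 or 4. Under the 3 scalings the calls of Trip13 (adjusted p from 0.0606 to 0.0647), Cks1b (0.0648 to 0.0691) and Spag5 (0.0501 to 0.0579) were also lost.

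Of 29 regulators of mitotic gene transcription, 2 rose and none fell (6.90% passed, against 4.46% of all genes). Over all genes, 0.800% passed as higher and 3.66% as lower. Myb, a transcription factor of proliferating blood cells, rose 1.57-fold (limma adjusted p = 0.0102) and kept that call when any single array was left out. Rbl2, the pocket protein p130 of the DREAM complex, rose 1.35-fold (limma adjusted p = 0.0252). Leaving out PBS array 1 or 2, or hBD-2 array 3 or 4, ended that call. E2f1 stood at -0.59 with an SD of 0.382 among the hBD-2 arrays and did not pass (limma adjusted p = 0.0646).

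Genes of the DNA replication fork, which act earlier in the cycle, were set beside these with no test between the lists. Of 47 measured, 8 fell and none rose (17.0%, against 4.46% of all genes). Fold changes were below 0 in 46 (97.9%, against 46.1% of all genes), with a median of -0.27. Lower without overlap were 29.8%, against 9.36% of all genes. Between levels 8 and 9, where the list's median level of 8.37 lay, 23.1% of all genes were. The corresponding values of the mitotic genes were 4.35%, 43 of 46, -0.20 and 43.5%. Mcm3, of the replicative helicase, fell 1.58-fold (limma adjusted p = 0.0131), and Rfc2, Tyms and Uhrf1 fell 1.42-, 1.52- and 1.42-fold (limma adjusted p = 0.0229, 0.0252 and 0.0304). The 8 calls became 14 without hBD-2 array 1, 5 without hBD-2 array 2 and 1 without hBD-2 array 3 or 4 or PBS array 1, 2 or 4. The share of all genes that passed also moved over these fits, as given for the members above. Mcm3 kept its call without any single array, Rfc2 and Tyms only without PBS array 3 or hBD-2 array 1, and Uhrf1 only without hBD-2 array 1 or 2.

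Markers of other cells were read on the same arrays. The summed linear level of 11 T cell markers was 15960 to 16821 with PBS and 16065 to 16992 with hBD-2. For 6 B cell markers it was 165 to 336 with PBS and 154 to 547 with hBD-2, and none passed. For 6 mast cell and basophil markers it was 187 to 223 with PBS and 190.0 to 271 with hBD-2, where Cpa3 and Fcer1a rose. Kit, the brightest of these by mean level, went the other way without passing (log2 -0.67; limma adjusted p = 0.0744). The sums on hBD-2 arrays 1 to 4 were 190.0, 191, 247 and 271, highest on the arrays where the mitotic genes were lowest. That order was not particular to this list. Arrays 3 and 4 also held the highest hBD-2 sums of the erythroid markers (170.0, 180, 197 and 208 on arrays 1 to 4). The same held for monocyte, macrophage and dendritic cell markers (126, 141, 163 and 160). T cell, B cell, natural killer and neutrophil markers did not have that order, and its cause was not tested. Itgam fell among 10 markers of monocytes, macrophages and dendritic cells, whose sums were 132 to 155 with PBS and 126 to 163 with hBD-2, and Klf1 rose among 3 erythroid markers. Those erythroid sums were 146 to 180 with PBS and 170.0 to 208 with hBD-2. The 5 natural killer markers (sums of 818 to 923 with PBS and 790 to 871 with hBD-2) and the 5 neutrophil markers (90.1 to 101 and 90.6 to 112) held no call. The natural killer sums came mostly from Eomes and Klrd1, at 8.91 and 8.41 with PBS. Klre1 was at 5.32, and Ncr1 and Klrb1c were dim at 2.97 and 2.96. No marker is at 0, because the deposited scale has no true zero, and the part of these cells in the mitotic values was not tested.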

How the data were processed

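The authors deposited log2 values of 22203 probe sets on 8 arrays, made with oligo and RMA per the submitters' processing notes. The sources used here give no versions, settings or annotation build. RMA pulls low signals together, so fold changes of dim genes are understated. A symbol was given to 19572 probe sets, and 2631 were not listed. Where a gene had several (55 genes), the highest mean was kept. The fit was limma 3.58.1 in R 4.3.3 (lmFit, eBayes, no block), two-sided, adjusted over 19505 genes, tested on simulated data. The genes and lists were chosen with earlier results of these data known. Array values are printed for the 3 smallest p in each of 8 roles, plus Mki67, Top2a, Cdc20 and Plk1, with ranges for Ndc80 and Kif20b; up to 4 genes by p may be named per other list. Alternatives changed the probe set, dim genes, scaling, variance model, weights, block and arrays. Precision is limited by 8 arrays. The labels do not name the mouse behind each array, so the main fit took no pairs. Same-numbered arrays had residual correlations of 0.18, 0.06, 0.16 and 0.00, and differently numbered ones ran from -0.15 to 0.09. Of the hBD-2 arrays, 1, 2 and 3 each correlated best with the PBS array of the same number, and 4 with PBS array 3. These values do not settle whether numbers mark pairs.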

Additional observations from a re-analysis of the deposited data

Results flagged for a closer look

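In 7 of 108 groups of 4 arrays, 1 array stood far from the other 3 by Dixon's criterion, which chance gives in about 1 group in 20. High values on hBD-2 array 1 were Aurka at 8.40 (the others 8.18 to 8.22), Oip5, a centromere assembly factor, at 7.29 (7.04 to 7.07), and Rfc2 at 7.78 (7.45 to 7.48). Low values on hBD-2 array 4 were Cenpa at 9.32 (9.47 to 9.50) and Birc5 at 8.67 (8.77 to 8.78). Among PBS arrays, Knl1 was low on array 2 at 8.18 (the others at 8.29), and Mcm3 was low on array 3 at 9.27 (9.44 to 9.47).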

How the results depend on the processing

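All genes called numbered 869; leaving out dim genes gave 1541, a variance trend with robust estimation 2033, leaving out each array in turn 312 to 1396, and leaving out hBD-2 arrays 3 and 4 gave 128. For the 2 members called, the same settings gave 10, 18, 0 to 8, and 0, while quantile normalization, cyclic loess and trend removal gave 1 each. For the 10 other mitotic genes called they gave 29, 37, 4 to 29, and 2. For the 8 replication fork genes called they gave 14, 24, 1 to 14, and 0, with 5 under each of the 3 scalings. Members lower without overlap, 20, became 13 after quantile normalization. Over the single arrays left out they ran from 20 to 28. Leaving out an array cannot make separate groups overlap, so that count could only stay or rise and says nothing on stability. The log2 fold change of Anln turned to 0.012 and that of Top2a to 0.0023 after quantile normalization, and Anln ran from -0.11 to 0.030 over the single arrays left out, positive without PBS array 1; the cause was not tested. The median of the members stayed between -0.15 and -0.23 over the single arrays left out.

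With the replicate number as a block, 857 genes passed and 2 members, Cdk1 and Hmmr, while Cenpa did not (limma adjusted p = 0.0567). Trip13 lost its call with the block (0.0524), and E2f1 (0.0357), Melk (0.0348), Ube2s (0.0460) and Oip5 (0.0443) passed as lower. Of the hBD-2 arrays, 1, 2 and 3 correlated best with the PBS array of their own number, and 4 did not. The pair tests gave 0 under each scaling, which says nothing on stability, since no single pair can pass after adjustment over 7. With arrays paired by number, no pair can reach the threshold. Pair tests of that kind, and pair tests without an array, were not run. The number of arrays and the lack of detection calls limit dim genes such as Ska1.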
